A study of Chlamydomonas reinhardtii with 8 samples.

Results

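*CAH1* of *Chlamydomonas reinhardtii* codes for a carbonic anhydrase of the periplasm. On the whole genome array it is represented by transcript model 24120, which is 1 of 14557 models, and by 3 of their 43671 probes. The gene was chosen by its model identifier, with its values on these arrays already known, so that its own intensities and log2 ratios are given as a description without a test. In the v5.5 annotation the model corresponds to locus CHLRE_04g223100v5.

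RNA was measured on 8 arrays that each compare a Cy3 with a Cy5 sample. The replication experiment consisted of 6 arrays with the wild type cc3491. Cy3 carried T0 RNA, taken at 0 h from cultures in early stationary phase in TAP medium, which contains acetate, and Cy5 carried RNA of cells that had been washed and moved to TAP medium without sulfur under constant light. The titles of all 6 arrays give 24 h of starvation, whereas the Cy5 labels give 24, 48, 72, 96, 24 and 48 h for replicates 1 to 6. The study speaks of 3 biological and 3 technical replicas without saying which arrays these were, so the p-values may in part measure technical spread. The other 2 arrays were a dye test with the wild type cc125. Their titles name sulfur stress, and the labels give 24 h in both channels. The study describes its dye test as the same RNA in both dyes, from cells starved of sulfur for 24 h. No array of the experiment had its dyes exchanged, and a bias of the dyes for a single probe is part of every ratio.

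The carbon-concentrating mechanism of this alga raises the CO2 around Rubisco when inorganic carbon is scarce. Carbonic anhydrases interconvert CO2 and bicarbonate, transporters move bicarbonate across the plasma membrane and the chloroplast envelope, and *CAH1* acts outside the plasma membrane. Its transcript is a classical marker of this mechanism, low in high CO2 and strongly induced in low CO2. *LCR1*, a MYB-type regulator, is known to act on *CAH1*, *LCI1* and *LCI6*.

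On replicates 1 and 2 only 2182 and 2465 of 43705 probes were well above background, compared with 16826 to 24466 on replicates 3 to 6. The means below therefore refer to replicates 3 to 6, and replicates 1 and 2 are given beside them. Replicates 1 to 4 lay on slide 1 and replicates 5 and 6 on slide 2, and of the arrays used those of slide 1 are labelled with 72 and 96 h and those of slide 2 with 24 and 48 h, so that slide and labelled time cannot be told apart. The sulfate transporter gene *SLT1*, which is induced in sulfur starvation, was higher in Cy5 by 1.95, 2.29 and 2.75 on the log2 scale with its 3 probes. The arylsulfatase genes *ARS1* and *ARS2* and the extracellular protein genes *ECP76* and *ECP88* were too dim on the cc3491 arrays to be tested. Their untested means lay between -0.30 and 0.72, apart from probe 1 of *ECP76*. That probe gave 4.45, 3.66, 0.13 and 0.46 on replicates 3 to 6. The study reports each of these genes as raised in sulfur starvation, so in cc3491 only *SLT1* clearly showed the response here. On the second dye-test array 14 of the 15 probes of these 5 genes were at least 2-fold higher in Cy5, whereas none was on the first. The second dye-test array thus goes against the study's description of equal RNA in both channels, and what its Cy3 RNA was cannot be told from the labels.

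*CAH1* transcript was far lower in sulfur-starved cc3491 cells than at T0. With probe 1 the Cy3 intensity at T0 was 12360, 12924, 5315 and 5453 on replicates 3 to 6. The Cy5 intensity of the starved cells was 477, 592, 238 and 212. Cy3 was thus above Cy5 on each of these arrays, and both channels were well above background on all 4 arrays. With probe 3 the T0 intensity was 3872, 3322, 1890 and 1565, and that of the starved cells was 697, 659, 494 and 455. Here, too, Cy3 was above Cy5 on each of these arrays. All these intensities are processed signals, corrected for background and dye by the scanner software, and levels of different probes are not comparable.

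**Figure D1:**
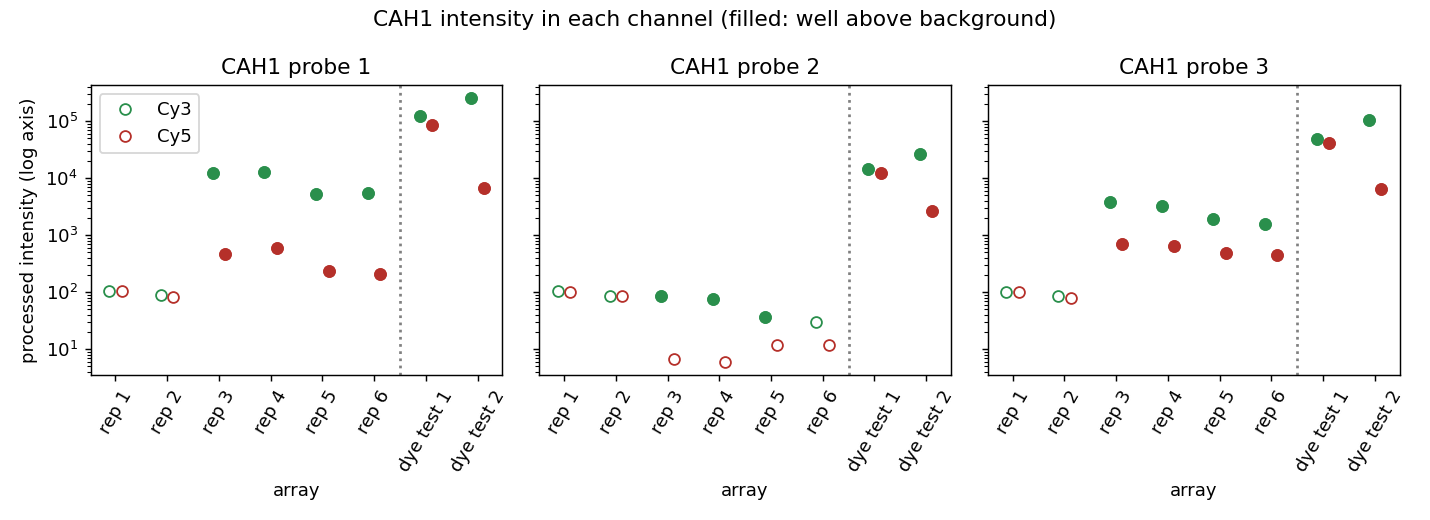
Processed intensity of the 3 *CAH1* probes in Cy3 and Cy5 on each of the 8 arrays, on a log axis, with filled points well above background and open points not. Probes 1 and 3 are clearly brighter in Cy3 on replicates 3 to 6 and on the second dye-test array, while probe 2 is dim on every cc3491 array.

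With probe 1 the log2 ratio of starved over T0 was -4.66, -4.41, -4.46 and -4.65 on replicates 3 to 6. The mean of -4.55 ± 0.13 (SD, n = 4) is a 23.4-fold lower level, with 4.28% of the T0 signal left. The 4 arrays thus gave almost the same value on both slides, with means of -4.54 on slide 1 and -4.56 on slide 2. Among 18241 tested probes, this mean was number 4 from the low end, after probes 1 and 2 of model 188728 and probe 1 of model 187652. The median of all tested probes was -0.02. With normexp background correction of the uncorrected intensities the mean of probe 1 was -3.46 and with no correction it was -3.78, so the size of the fall depends on the background correction. The Cy5 spot of probe 1 was 220 and 248 units above its local background on replicates 3 and 4, but only 25 and 21.5 units on replicates 5 and 6.

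With probe 3 the log2 ratio was -2.44, -2.29, -1.91 and -1.75, and the mean of -2.10 ± 0.32 (SD, n = 4) is a 4.28-fold lower level. The fall was present on every one of these arrays, and it was larger on slide 1 (-2.36) than on slide 2 (-1.83). Probe 3 was number 67 from the low end. The difference between probe 3 and probe 1 on the same array was 2.45 ± 0.35 (SD, n = 4) log2 units and lay between 2.12 and 2.90. Both probes gave the same direction, but the size of the fall depended more on the probe than on the array.

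**Figure D2:**
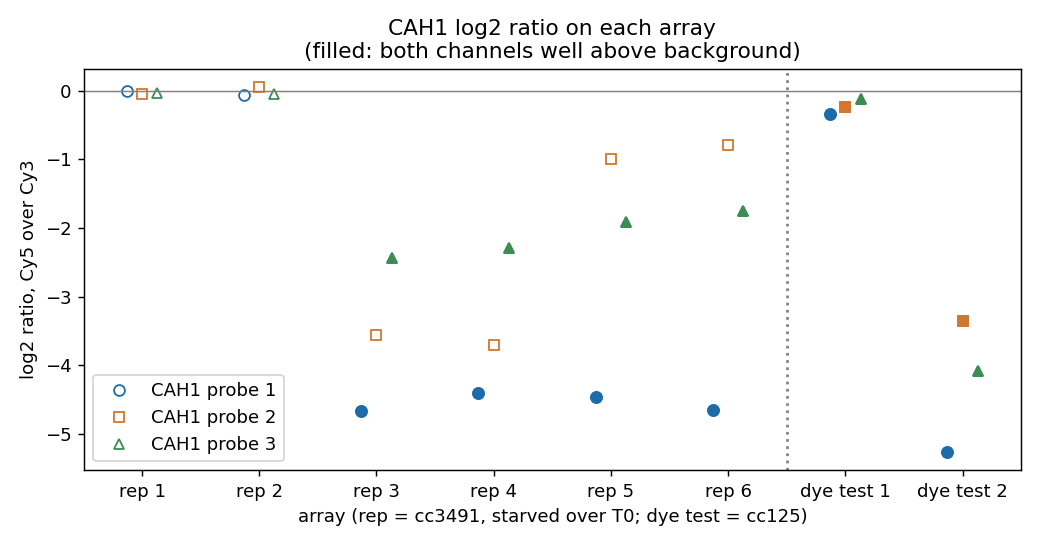
Log2 ratio of Cy5 over Cy3 after loess normalization for the 3 *CAH1* probes on each array. Filled points are well above background in both channels. Probe 1 lies between -4.66 and -4.41 on replicates 3 to 6, all 3 probes lie at 0 on the dim replicates 1 and 2, and the dye-test arrays differ from each other.

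Probe 2 had little signal in cc3491. Its Cy3 intensity was 86.9, 77.6, 36.6 and 29.9 on replicates 3 to 6, well above background on 3 of the 4 arrays. The Cy5 intensity was 6.61, 6.10, 12.1 and 12.02 and was not well above background on any of them. The log2 ratios were -3.56, -3.70, -0.99 and -0.79, with a mean of -2.26 ± 1.58 (SD, n = 4). The mean was -3.63 on slide 1 and -0.89 on slide 2. Since the software puts a substitute in place of a signal at background, only a rough bound can be given. With the lowest signal well above background in place of the starved values the level was 1.10-fold lower. This is not a strict minimum, because Cy3 on replicate 6 was itself not well above background. With normexp the mean was -0.31. The bound compares the normalized log2 mean of Cy3 over the 4 arrays with that of the Cy5 floor.

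On replicates 1 and 2 none of the 3 probes was well above background in either channel. The 6 log2 ratios were between -0.07 and 0.06. The intensities there lay between 79.6 and 105. These 2 arrays therefore gave no measurement of *CAH1*, and including them moved the mean of probe 1 to -3.04 and that of probe 3 to -1.41.

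Probes of 1 model often differed in size on these arrays, without a general order. The study left out the probes taken over from the first generation array, because of lower log2 ratios and possible cross-hybridization. According to the study, the third probe of a model was based on that earlier array. Whether probe 3 of *CAH1*, or another of its probes, was of that kind was not determined here. Over 3115 other models with all 3 probes tested, probe 3 was nearer to 0 than probe 1 in 49.5%, and the median difference between probe 3 and probe 1 was -0.04. In the 151 models with probe 1 at -1 or below, probe 3 was nearer to 0 in 72.8%, and in the 162 models with probe 3 at -1 or below, probe 1 was nearer to 0 in 77.2%. The probe that chose the models was thus the more extreme one either way, and these shares show nothing particular to *CAH1*. The size of its gap was less common. The median difference between probe 3 and probe 1 was 0.35 in the 151 models, compared with 2.45 for *CAH1*. It was 0.64 in the 17 models with probe 1 at -2 or below. None of these had probe 1 as low as that of *CAH1*, and the cause of its gap was not tested.

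**Figure D3:**
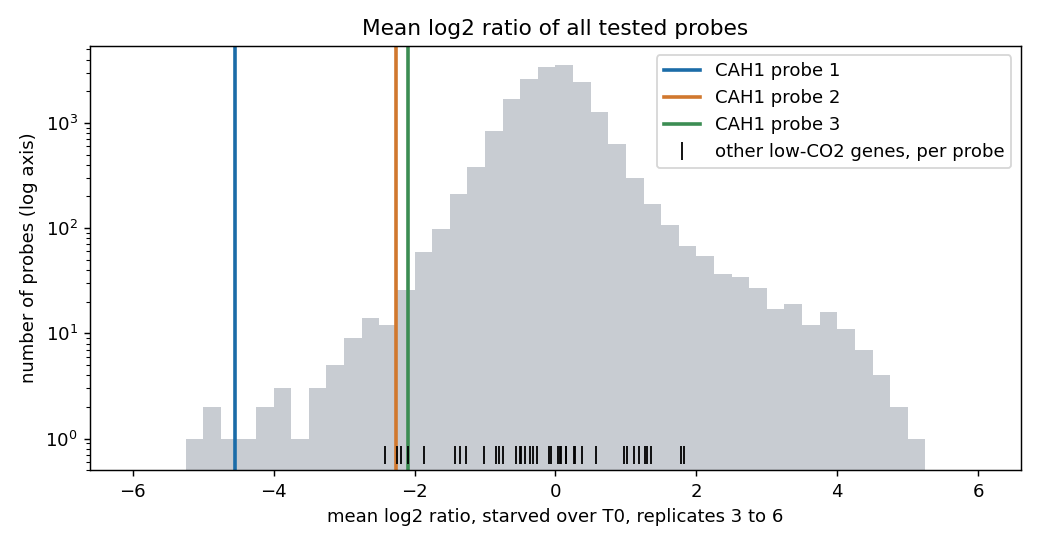
Number of probes, on a log axis, by mean log2 ratio of starved over T0 cc3491 cells on replicates 3 to 6, for 18241 tested probes. The vertical lines are the means of the *CAH1* probes (-4.55, -2.26 and -2.10), and the ticks are the tested probes of the other low-CO2 genes, between -2.42 and 1.82.

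In the strain cc125 *CAH1* was bright in both channels of the first dye-test array. By title and labels both channels carried RNA of cells under sulfur stress. The Cy3 intensity of probes 1, 2 and 3 was 123812, 14760 and 49543, and the Cy5 intensity was 85605, 12250 and 41378. The Cy5 spot of probe 1 was saturated. On the second dye-test array, on the same slide and with the same labels, the Cy5 intensity was only 6643, 2694 and 6363. The same labels thus stand for far different *CAH1* signals. Whether the RNA of the first array came from sulfur-starved cells cannot be told from the labels, and its values do not show that *CAH1* stays high in starved cc125. The log2 ratios were -0.33, -0.23 and -0.13, within the SD of 0.30 over 38991 probes of this array apart from probe 1, which was slightly beyond it. On this array 0.182% of the probes were at least 2-fold lower and 0.3% at least 2-fold higher, and no *CAH1* probe was among them. With these values subtracted from the cc3491 arrays the mean of probe 1 was -4.21, which is not an exact value because the Cy5 spot subtracted was saturated.

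On the second array labelled as dye test, which goes against the description of equal RNA, *CAH1* was again low in Cy5. The Cy3 intensity was 254384, 26210 and 103450 with probes 1, 2 and 3, and the Cy5 intensity was 6643, 2694 and 6363. The log2 ratios were -5.26, -3.35 and -4.08. All 3 probes were well above background in both channels there, so the ratio of probe 2 was measured and not only a bound. Of 43050 probes, 12.2% were at least 2-fold lower on this array and 8.68% at least 2-fold higher. Probe 1 was number 9, probe 3 number 94 and probe 2 number 249 from the low end. This is 1 array without a replicate.

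Other genes of the carbon-concentrating mechanism were examined in the same fit. The study's tables name 17 further models with 51 probes, of which 39 probes could be tested. limma's moderated test was used with the thresholds of the study's methods, 2-fold or more with a Holm-adjusted p under 0.05. By this rule 0 probes fell and 0 rose, compared with 0.367% of all tested probes lower and 0.795% higher. The Holm count of lower probes was 2 with normexp background correction, 2 without background correction and 1 when a probe had to be above background on all 4 arrays. An unadjusted p under 0.05 was found for 29 of the 39 probes, and for 9892 of all 18241. With a Benjamini-Hochberg adjusted p instead, 8 probes of 4 models fell and 8 probes of 5 models rose, which is 20.5% in each direction. Over all tested probes the same rule called 4.28% lower and 4.7% higher. The median of the 39 probes was -0.09, with 21 means below 0 and 18 above, a split close to that of all tested probes, of which 51.7% were below 0. With normexp the Benjamini-Hochberg counts were 5 lower and 3 higher, and with replicates 1 and 2 included they were 0 and 0. The study named these models for their change in its own starvation experiments, and their counts are not independent evidence of a response. *CAH2* and most other carbonic anhydrases carry no name in these tables, and which models are theirs was not determined here.

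The regulator gene *LCR1* had the lowest mean of the list. Probe 3 gave -2.08, -2.13, -2.29 and -2.50 on replicates 3 to 6, and probe 2 gave -2.11, -1.99, -2.55 and -3.03. The means were -2.25 and -2.42, and both passed the Benjamini-Hochberg adjustment (limma's moderated test, adjusted p = 0.000294 and 0.00132). The call of probe 2 was lost with normexp, that of probe 3 was not. Probe 1 had a mean of -1.86 ± 1.60 (SD, n = 4) and did not pass.

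*LCI1*, which codes for a low-CO2-inducible protein of the plasma membrane involved in inorganic carbon uptake, fell with 2 of its 3 probes. Probe 1 gave -1.87, -2.17, -2.07 and -2.26 and probe 2 gave -2.09, -1.73, -2.54 and -2.39. Probe 3 had a mean of only -0.32 ± 0.24 (SD, n = 4) and did not pass the test. The calls of probes 1 and 2 were lost with normexp and without background correction. The low-CO2-inducible gene *LCI6* of model 183315 fell with all 3 probes, with means of -1.42, -1.27 and -1.36. A different model with the same name, 184094, did not pass with any probe, and its 2 tested means were -0.74 and -0.50. For *LCI31* of model 135480 the 3 means were -0.37, -0.84 and -0.56, all below 0 and none with a 2-fold change. Another model of the same name, 189142, had tested means of 0.04 with probe 1 and -0.43 with probe 2, and neither was called. Outside the rule for named genes, and picked after its values were seen, *LCID* of the *LCIB* family fell with probe 3 alone, with a mean of -1.02, and was not called without replicate 5, without replicate 6, with normexp or without background correction.

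The genes of bicarbonate transport other than *LCI1* had mean log2 ratios above 0. *NAR1.2*, also called *LCIA*, codes for an anion channel of the chloroplast envelope. Its probe 1 gave 1.24, 1.21, 1.37 and 1.25 and the mean of 1.27 passed the Benjamini-Hochberg adjustment, as did that of probe 3 with 1.30, while probe 2 with 0.98 ± 0.47 (SD, n = 4) was below 2-fold. Model 189430, which the tables name both *CCP1* and *CCP2*, had means of 0.28, 0.15 and 0.57 and was not called. Among the carbonic anhydrases, the other one with a name was model 192558, which the tables name *CAH5*, a mitochondrial enzyme of the beta type. Its locus, CHLRE_12g529100v5, differs from the one the study's text gives for the mitochondrial carbonic anhydrase, so its identity is uncertain. Probe 1 of this model rose by 1.35 ± 0.22 (SD, n = 4), but probes 2 and 3 had means of 0.15 and 0.06 and did not pass. The calls of *NAR1.2* probe 3 and *CAH5* probe 1 were lost with normexp and without background correction. The remaining calls were chosen after their values were seen. *LCI28* rose with means of 1.82 and 1.78, *LCI36* with 1.02 and 1.12 (the first not called without replicate 3 or without replicate 4), and *CCP2* of model 128766 with probe 1 at 1.19, while probe 3 of *LCI28* and of *LCI36* was too dim to test, as were probes 2 and 3 of *CCP2*. The calls of *LCI36* and *CCP2* were lost with normexp and without background correction, and those of *LCI36* with median centring too.

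**Figure D4:**
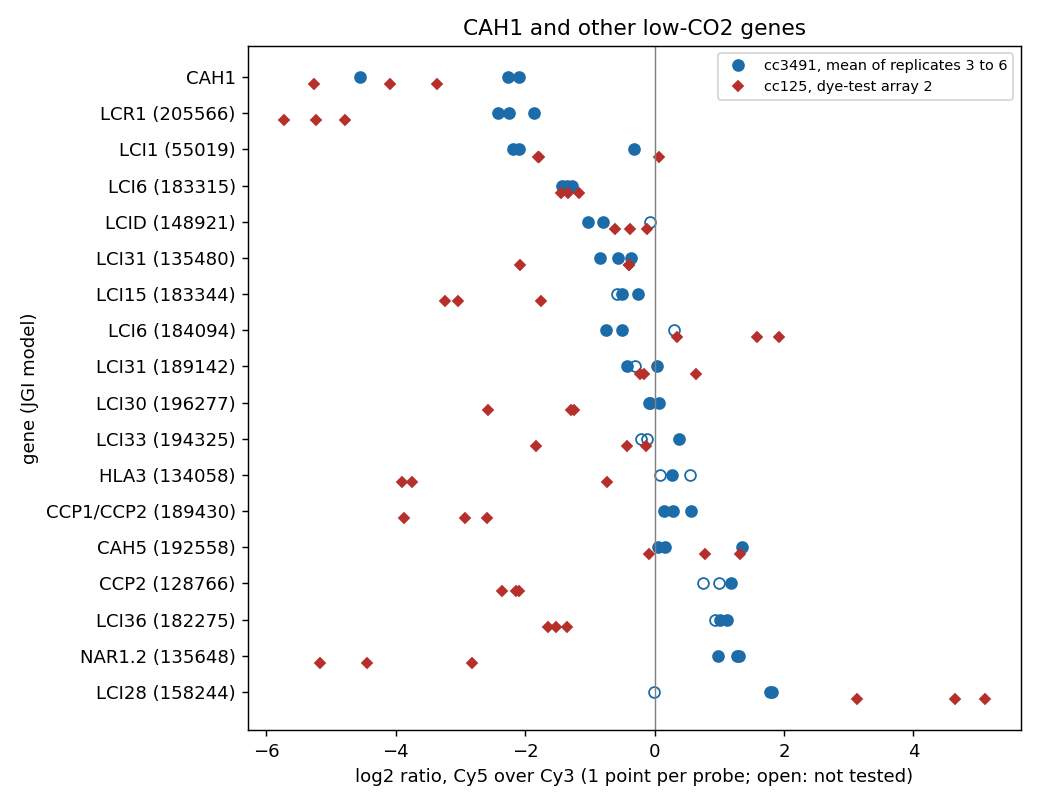
Log2 ratio of Cy5 over Cy3 of each probe of *CAH1* and the 17 other low-CO2 gene models, as the mean of replicates 3 to 6 in cc3491 (circles, open where not tested) and on the second dye-test array in cc125 (diamonds). *NAR1.2* lies above 0 in cc3491 and below 0 on the cc125 array, while *CAH1* and *LCR1* lie below 0 on both.

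Replicates 3 and 4 on slide 1 were compared with replicates 5 and 6 on slide 2. In limma's moderated test 0 of the 39 passed the Holm or the Benjamini-Hochberg adjustment, 8 had an unadjusted p under 0.05, and the lowest adjusted p was 0.085. Over all 18241 probes 0% passed, with 4219 at an unadjusted p under 0.05. For *CAH1* itself the slide means are the values given above.

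The second array labelled as dye test gave other values for the list in cc125. Of the 51 probes of the list 30 were at least 2-fold lower in Cy5 (58.8%, compared with 12.2% of all probes), and 6 were at least 2-fold higher (11.8%, compared with 8.68%). Here, too, the models were named by the study for their change in starvation, so these shares are not independent evidence of a response. Of the 15 probes of the inorganic carbon transport genes, 13 were at least 2-fold lower. *NAR1.2* had log2 ratios of -5.18, -2.83 and -4.45 there, and *LCR1* had -5.24, -4.77 and -5.73. The ABC transporter gene *HLA3*, whose product moves bicarbonate across the plasma membrane, had -3.75, -3.89 and -0.73, whereas its only probe tested in cc3491 had a mean of 0.27. Probes 1 and 2 of *LCI28* were higher in Cy5 on these arrays of both strains. The strains also differ in slide and in the channel labels, and the difference between them was not tested. On the first dye-test array 44 probes of the list were above background and had a ratio, and none of these was at least 2-fold different. Some probes above background, among them probe 3 of *LCR1* and probe 1 of *NAR1.2*, had no ratio there.

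The array-wide pattern most like that of *CAH1* was searched over replicates 3 to 6 and both dye-test arrays, with the mean of 3 probes per model. For *CAH1* this mean includes probe 2, whose Cy5 value on replicates 3 to 6 is a substitute for a signal at background and which accounts for most of the step between the slides. The *CAH1* mean was -3.55, -3.46, -2.45 and -2.40 on replicates 3 to 6 and -0.23 and -4.23 on the dye-test arrays. Among 1923 models that were above background in at least 1 channel with all probes on these 6 arrays, which *CAH1* itself does not pass because of probe 2, the root mean square difference from *CAH1* had a median of 3.01 log2 units. Model 126810, which the study names *NAB1*, a repressor of the translation of light-harvesting antenna transcripts, had a difference of 0.65. Its values were -3.01, -2.97, -2.67, -2.64, -0.31 and -2.85. The phosphate symporter model 183357, named *PTA3* and *PTB3*, followed with 0.74 and values of -2.35, -2.30, -2.02, -2.27, -0.18 and -3.76. Next were model 159408 with 1.33, *ERM1* (206128), which codes for a membrane protein related to ERD4, with 1.43, and the unnamed model 164497, also with 1.43. With probes 1 and 3 alone, an alternative added after seeing the data, the *CAH1* values were -3.55, -3.35, -3.19, -3.20, -0.23 and -4.67. The phosphate symporter was then the nearest with 1.13, and *NAB1* followed with 1.33, so that their order and the size of the differences depend on probe 2. Of the 5 models 4 were the same, and *ERM1* moved to place 35. By Pearson correlation over the same 6 arrays and 3 probes only 1 of the 5 nearest models was the same, the phosphate symporter.

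The neighbours of *CAH1* on its chromosome were examined on the cc3491 arrays. Of the 6 annotated genes on each side, a window chosen after the values were seen, 11 are on the array with 33 probes. Of these, 12 probes of 8 genes could be tested and the others were too dim. Over the whole array 18241 of 43705 probes could be tested, so most probes were too dim there as well. By Holm 0 were called, and by Benjamini-Hochberg 3 probes fell and 1 rose. Over all tested probes these rules called 0.367% and 4.28% lower and 0.795% and 4.7% higher, but with 12 probes the counts are small. Model 128726, directly before *CAH1*, had -2.41, -1.61, -1.13 and -1.13 with its tested probe 2, a mean of -1.57 ± 0.60 (SD, n = 4), and this call was lost with normexp and without background correction. Its other 2 probes had means of -1.11 and -1.12 but were too dim to be tested. On the second array labelled as dye test its probes had -0.62, -0.09 and -0.16, far from the values of *CAH1* there. Model 205997, 4 genes after *CAH1*, fell with means of -1.02 and -1.23, and neither was called with normexp. The first was not called without replicate 6, and the second not without background correction. The 2 *CCP* models also lie in this window, 128766 at 6 genes before and 189430 at 5 genes after *CAH1*, and neither had a mean below 0.

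**Figure D5:**
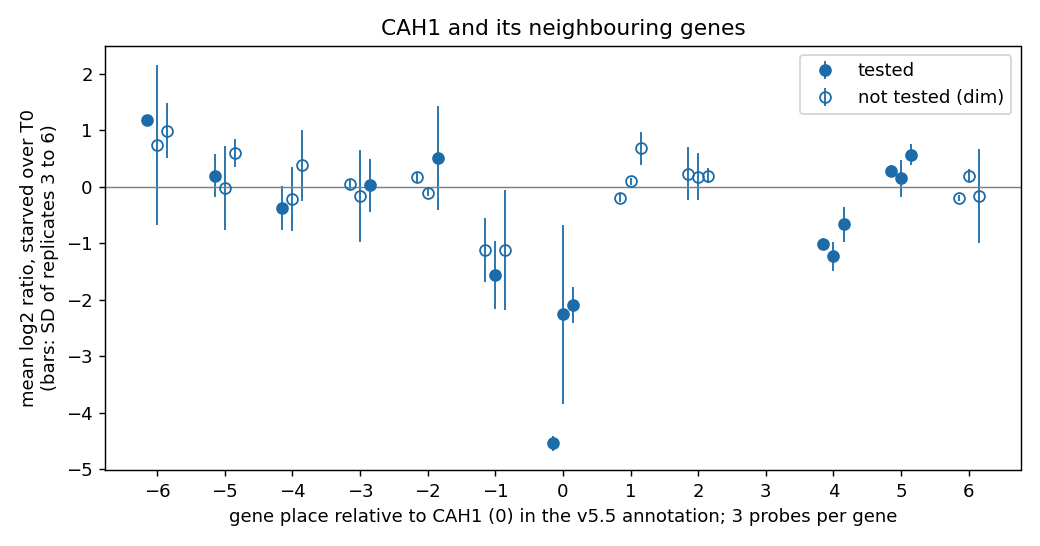
Mean log2 ratio of starved over T0 cc3491 cells, with the SD of replicates 3 to 6 as bars, for each probe of the genes next to *CAH1* by their place in the v5.5 annotation. Filled points were tested and open points were too dim. The *CAH1* probes at place 0 lie below all neighbours, and the tested probe at place -1 has a mean of -1.57.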

How the data were processed

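The authors deposited the scanner output of each array, made with Agilent Feature Extraction 10.7.3.1. It holds the processed intensity of both channels per spot, corrected for background and dye, with a substitute for signals at background, the uncorrected median intensity and quality marks. A value table of the series, also deposited, holds log10 ratios of Cy5 over Cy3, identical to those of the scanner files. Log2 ratios of the processed intensity were normalized by loess within each array (limma 3.58.1, R 4.3.3), following the lowess step, the Holm adjustment at 0.05 and the 2-fold change of the methods. Marked and control spots were left out and saturated spots kept. Of the 4 arrays used (replicates 3 to 6), 3 or more had to show a probe well above background in Cy3 or Cy5 for it to be tested. For these 18241 probes the mean was tested against 0 with limma's moderated statistic.

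The members, the lists, the gene rule and the use of replicates 3 to 6 were chosen with earlier results of these data known. Named list members were those with all 3 probes tested and means of one sign, and the carbonic anhydrases. Pattern models were the 5 nearest to *CAH1*. Gene names are those of the study's tables and text, and 12302 of the 14557 identifiers could be matched to the v5.5 annotation. Alternatives covered background correction, normalization, arrays, filter, adjustment and slide. The steps were tested on simulated data. The number of arrays limits the precision, and read depth does not apply. Sequences of the probes, the protein and the promoter are not used here. Figures were drawn with matplotlib 3.10.9.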

Additional observations from a re-analysis of the deposited data

Results flagged for a closer look

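*CAH1* had a mean log2 ratio of -4.23 over its 3 probes on the second dye-test array, a signal in an array that the comparison of starved with T0 cells did not use, and far from the -0.23 of the first dye-test array with the same labels. The mean of the 3 *HLA3* probes (model 134058) was 0.02, 1.13, 0.05 and 0.00 on replicates 3 to 6. Replicate 4 stands apart, by a gap of 0.953 of the whole range, above Dixon's critical value for 4 arrays. It rests on probes 2 and 3, which were too dim to be tested and gave 1.96 and 1.12 on replicate 4. Of 26 values examined in this way 1 was past the critical value, and about 1 in 20 would be by chance.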

How the results depend on the processing

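Each of the 3 *CAH1* probes kept a mean below 0 under every alternative run. The mean of probe 1 was -3.46 with normexp, -3.78 without background correction, -4.68 with median centring, -3.04 with all 6 arrays and -4.21 after subtraction of the first dye-test array, where its Cy5 spot was saturated. The mean of probe 2 was -0.31 with normexp and -0.51 without background correction, and that of probe 3 was -1.58 with normexp and -1.41 with all 6 arrays. Leaving out each of replicates 3 to 6 in turn gave -4.59 to -4.51 for probe 1, -2.75 to -1.78 for probe 2 and -2.21 to -1.98 for probe 3.

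Of all tested probes 212 were called, 145 higher and 67 lower. The count was 136 with normexp (59 higher), 138 with median centring (93 higher), 6 with all 6 arrays, 58 without the filter, 107 with slide as a random block and 1639 with the Benjamini-Hochberg adjustment (858 higher). It was 8 to 16 without one of replicates 3 to 6, where fewer arrays enter the test: 13 without replicate 3, 8 without replicate 4, 16 without replicate 5 and 15 without replicate 6. Of the other low-CO2 genes, 0 probes were called lower, but 2 with normexp, 2 without background correction, 8 with Benjamini-Hochberg and 1 with the filter on all 4 arrays, and 8 were called higher with Benjamini-Hochberg. Alternatives to the Benjamini-Hochberg counts of 8 lower and 8 higher were added after seeing the data. They gave 5 lower and 3 higher with normexp, 3 higher without background correction, 0 and 0 with all 6 arrays, and 5 higher after subtraction of the first dye-test array, where some probes had no value. Without one of replicates 3 to 6 there were 7 to 8 lower and 7 to 9 higher. Median centring moved the median of all probes from -0.02 to -0.23 and that of the list from -0.09 to -0.22, with 5 of 39 means changing sign. Of the 5 models nearest to *CAH1*, 1 was shared with Pearson correlation and 4 with probes 1 and 3 alone. Where no construction is named the cause was not tested. No paired analysis was possible because the cc3491 and cc125 arrays share replicate numbers by name only and each ratio already pairs both RNAs. Signal over background limits probe 2.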
